A study of Homo sapiens with 2 samples.

Results

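The collagens, laminins and related matrix genes of Ewing sarcoma cells were examined in single-cell transcriptomes of the lines CHLA9 and TC71. Members were all genes whose symbol names a collagen chain (COL, a number, A and a number), a laminin chain (LAMA, LAMB or LAMC), a tissue inhibitor of metalloproteinases (TIMP1 to TIMP4) or a matrix metalloproteinase (MMP), with FN1, SPARC and HMCN1 added. This gave 85 of the 33538 genes counted: 44 collagens, 12 laminins, 4 TIMPs, 22 MMPs and 3 others. Both lines come from Ewing sarcoma, a bone and soft tissue tumor of young people, and each was profiled as 1 droplet library in which unique molecular identifiers (UMIs) at the 3' end count each RNA molecule once, so levels were not divided by gene length. The medium was IMDM with fetal bovine serum and an insulin, transferrin and selenium supplement for CHLA9, and RPMI with a lower share of serum for TC71. Both libraries were sequenced on a HiSeq and that of CHLA9 again on a NovaSeq, so the effects of the line, its medium and its sequencing cannot be told apart here. A barcode was kept as a cell if it had 5000 or more UMIs, 2000 or more genes and no more than 15% of its UMIs from mitochondrial genes. This left 4524 of 5077 CHLA9 barcodes, with 174975302 UMIs and a median of 34656 per cell, and 1729 of 8468 TC71 barcodes, with 58355173 UMIs and a median of 33370. The libraries had 16 barcode sequences in common, 3 of them among kept cells. Levels are the UMIs of a gene summed over cells and scaled to the library total as CPM, and intervals are exact 95% intervals that cover counting error only; with 1 library per line, the lines were not compared by a test.

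Collagens are secreted proteins whose chains wind into long helices: fibrillar collagens give tissues their tensile strength, type IV collagen forms the sheet of the basement membrane together with laminins, and other types coat fibrils or link them to cells. MMPs are zinc proteases that cut these proteins, and TIMPs are secreted proteins that block MMPs. Ewing sarcoma is driven by a fusion of EWSR1 with an ETS factor, most often FLI1, and its tumors are sheets of small round cells with little matrix between them.

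Some matrix genes reached 1 CPM in both lines and others in a single line. In CHLA9 35 members reached 1 CPM and in TC71 28, with 20 of them at that level in both lines, 15 in CHLA9 alone, 8 in TC71 alone and 42 in neither. Of all genes, 37.1% reached that level in CHLA9 and 37.6% in TC71. The split between the lines was not set beside that of all genes, so it describes the members only. Some members counted for CHLA9 alone lay close to the limit, as LAMB3 (1.17 against 0.617 CPM in TC71) and COL27A1 (1.12 against 0.617 CPM). All 85 summed to 1107 CPM (1102 to 1112) for CHLA9 and 1428 CPM (1418 to 1438) for TC71, so the log2 ratio of TC71 over CHLA9 was 0.37 (0.36 to 0.38). That higher TC71 sum came from a single gene. TIMP1 gave 67.7% of the TC71 sum, and without it, an alternative chosen after seeing the data, CHLA9 held 1040.2 CPM and TC71 461 CPM, a log2 ratio of -1.17 (-1.19 to -1.15). In CHLA9 the largest contributor, COL1A2, gave 18.4%, and the 5 highest genes (COL1A2, TIMP3, HMCN1, TIMP2 and TIMP1) gave 47.7%, against 87.6% for the 5 highest in TC71 (TIMP1, HMCN1, SPARC, COL21A1 and COL5A2). Matrix message was spread over many genes in CHLA9 and held mostly by TIMP1 in TC71.

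By family, collagens summed to 629 CPM for CHLA9 and 139.7 CPM for TC71 (log2 -2.17, -2.20 to -2.14). MMPs were low in both, at 33.1 and 8.74 CPM, and lower in TC71 (log2 -1.92, -2.05 to -1.79). Laminins were near the same level, at 76.7 CPM for CHLA9 and 70.4 CPM for TC71 (log2 -0.12). TIMPs went the other way, with 243 CPM for CHLA9 and 999.7 CPM for TC71, as did FN1, SPARC and HMCN1 together (126 and 209 CPM). Without TIMP1 the remaining TIMPs summed to 176 CPM for CHLA9 and 32.97 CPM for TC71, so TIMP1 alone set the direction of its family.

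**Figure D1:**
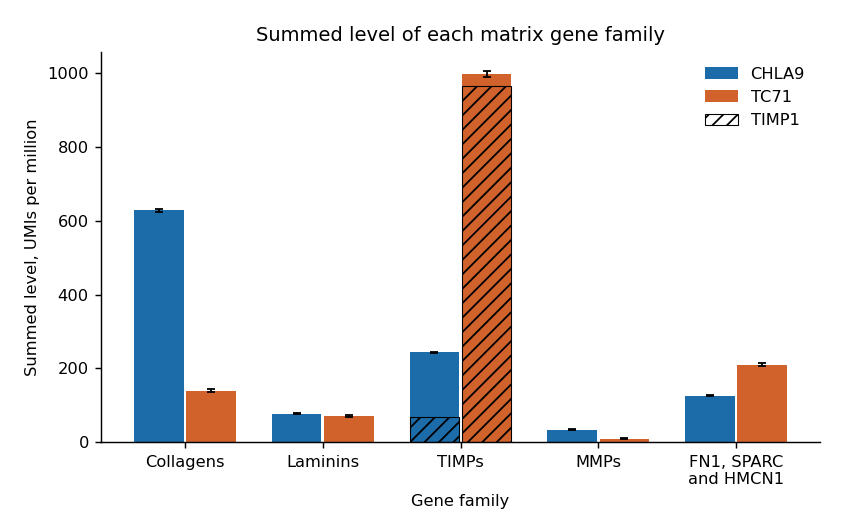
Summed level of the collagens, laminins, TIMPs, MMPs and the group FN1, SPARC and HMCN1 in CHLA9 and TC71, in CPM, with exact 95% Poisson intervals as error bars and TIMP1 hatched. Collagens reach 629 in CHLA9 against 139.7 in TC71, while TIMP1 makes up most of the tall TC71 bar of 999.7.

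Of the 85 members, 24 reached 10 CPM in a line and are described singly below; MMP14 (10.9 CPM in CHLA9) and COL19A1 (10.9 CPM in TC71) lay just inside that limit, and LAMA5 (9.596 CPM in TC71) and LAMA2 (8.84 CPM in TC71) just outside it. The other 61 ranged from 0 to 9.596 CPM, and 11 of them had 0 UMIs in both lines: COL9A1, COL20A1, COL22A1, COL23A1, MMP3, MMP7, MMP8, MMP12, MMP20, MMP26 and MMP27.

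**Figure D2:**
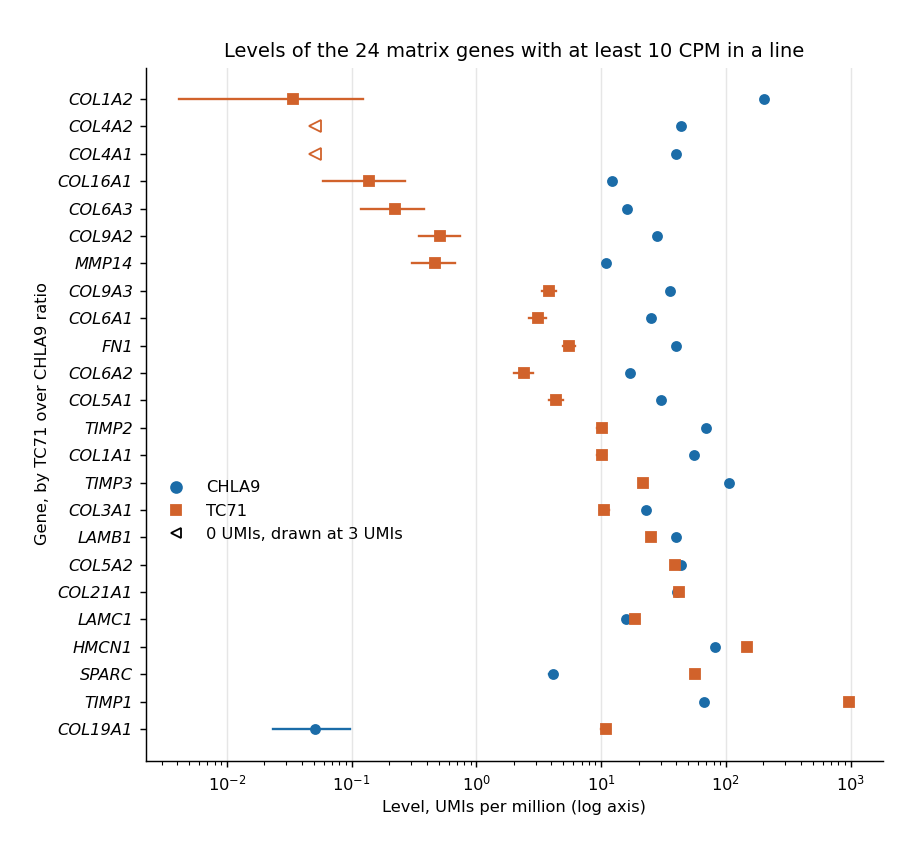
Level of the matrix genes with at least 10 CPM in a line, in CPM on a log axis, ordered by the ratio of TC71 to CHLA9, with exact 95% Poisson intervals; open triangles mark 0 UMIs, drawn at 3 UMIs. COL1A2, COL4A2 and COL4A1 sit at 203, 43.8 and 39.7 in CHLA9 and at or next to 0 in TC71, whereas SPARC, TIMP1 and COL19A1 are higher in TC71.

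Type IV collagen forms the network of basement membranes. COL4A1 and COL4A2, the chains that make the common form of type IV collagen, lie head to head on chromosome 13 (chr13:110148963-110307157, minus strand, and chr13:110305812-110513209, plus strand, GRCh38), and their annotated bodies overlap on opposite strands, which a stranded 3' count keeps apart. In CHLA9 COL4A1 stood at 39.7 CPM (38.8 to 40.7) and COL4A2 at 43.8 CPM (42.8 to 44.8). Neither had a UMI in the 1729 TC71 cells, where 3 UMIs would be 0.0514 CPM; against that floor COL4A1 was at least 773-fold and COL4A2 at least 852-fold higher in CHLA9. Over all 8468 TC71 barcodes, those below the filters included, COL4A1 had 1 UMI and COL4A2 0. Both chains were present together in CHLA9 and missing together at this depth in TC71.

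The promoters of these genes are shown because the chains moved together: the RefSeq windows (GRCh38.p14, 250 bases before to 50 bases after each start) share 226 bases, and the starts are 127 bases apart. COL4A1 is at chr13:110307108-110307407 on the minus strand and COL4A2 at chr13:110307034-110307333 on the plus strand, each written in its own 5′ to 3′ direction with matches to CCAAT, on either strand, in capitals.
COL4A1: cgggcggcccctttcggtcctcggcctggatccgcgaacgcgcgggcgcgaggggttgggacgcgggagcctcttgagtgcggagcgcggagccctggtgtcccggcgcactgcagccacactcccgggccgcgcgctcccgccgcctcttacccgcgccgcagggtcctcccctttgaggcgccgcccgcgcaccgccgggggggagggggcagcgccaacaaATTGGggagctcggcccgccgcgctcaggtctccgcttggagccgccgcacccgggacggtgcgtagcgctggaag
COL4A2: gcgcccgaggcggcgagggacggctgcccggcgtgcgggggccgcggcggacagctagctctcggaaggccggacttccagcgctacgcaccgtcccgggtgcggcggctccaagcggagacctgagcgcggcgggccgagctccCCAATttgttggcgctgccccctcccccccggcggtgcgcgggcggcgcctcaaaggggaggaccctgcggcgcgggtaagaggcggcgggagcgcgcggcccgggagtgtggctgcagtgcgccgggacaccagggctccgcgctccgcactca
Both windows were rich in G and C (76.7% and 77.7%, against a median of 58.7% over 35116 promoters) and held 45 CpG each, against a median of 14. CCAAT was found in each at the same shared bases, and in 34.6% of all promoters. The motifs TATAAA, GGAAGGAA and TGA-any base-TCA, searched on both strands, were in neither window and in 11.5%, 3.67% and 7.71% of all promoters.

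The other type IV chains were near 0 in CHLA9. COL4A5, a chain of the type IV networks of kidney and smooth muscle, had 2 UMIs in CHLA9 and 98 in TC71 (1.68 CPM), a log2 ratio of 7.20 (5.31 to 10.26), and COL4A4 14 and 31 UMIs; COL4A3 and COL4A6 had 0 in CHLA9 and 2 each in TC71. These low genes are named after their values were seen. TC71 held COL4A5 with hardly any message of COL4A6, the chain it is known to pair with in smooth muscle.

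Among fibrillar collagens, COL1A2 was the highest of all members in CHLA9. COL1A2, a chain of type I collagen, the main collagen of bone and skin (chr7:94394895-94431227, plus strand), was counted 35558 times in CHLA9 (203 CPM, 201 to 205) and ranked 762 of all genes. In TC71 it had 2 UMIs (0.0343 CPM, 0.00415 to 0.124), a ratio of 5929-fold in favor of CHLA9 with a counting interval from 1641 to 48963. COL1A1, the partner chain, differed less: CHLA9 held 56.002 CPM (54.9 to 57.1) and TC71 10.2 CPM (9.36 to 11.01), a log2 ratio of -2.46 (-2.58 to -2.34). TC71 kept message of COL1A1 while its partner was next to absent.

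Type V and type III collagens join type I in fibrils, type V as a regulator of their width. COL5A1 stood at 30.4 CPM for CHLA9 and 4.35 CPM for TC71 (log2 -2.81, -2.99 to -2.62), whereas COL5A2 was nearly level at 43.8 and 39.04 CPM (log2 -0.17, -0.24 to -0.10). For COL3A1, the chain of type III collagen, CHLA9 held 22.97 CPM and TC71 10.6 CPM (log2 -1.11, -1.24 to -0.99). As with type I, the chains of type V were unequal between the lines, with COL5A1 lower in TC71 and COL5A2 close to the same level in both. COL5A3, the remaining chain of type V, named after its values were seen, was higher in TC71, with 2 UMIs in CHLA9 and 40 in TC71 (0.0114 and 0.685 CPM, log2 5.91, 3.96 to 9.001). Among the other fibrillar genes, named after their values were seen, COL2A1, the cartilage collagen, was 0.366 CPM in CHLA9 against 2.79 CPM in TC71, and COL24A1 0.126 against 1.89 CPM, whereas COL11A2 was 1.26 against 0.257 CPM (log2 -2.30) and COL27A1 1.12 against 0.617 CPM (log2 -0.86); COL11A1 had 1 UMI in CHLA9 and 0 in TC71.

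Type VI collagen, a beaded filament found around most cells, was low in TC71 in all 3 of its main chains. COL6A1 was 25.1 CPM in CHLA9 against 3.102 CPM in TC71 (log2 -3.02, -3.24 to -2.80), and COL6A2, its neighbor on chromosome 21, 16.9 against 2.399 CPM (log2 -2.82, -3.07 to -2.57). COL6A3 was 16.2 CPM (15.6 to 16.8) in CHLA9 against 0.223 CPM (0.119 to 0.381) in TC71, a log2 ratio of -6.18 (-7.09 to -5.41). In cells with at most 10% of UMIs from mitochondrial genes, that ratio was -7.29. The deficit was deeper for COL6A3 than for the other chains. COL6A5 and COL6A6 had 2 and 6 UMIs in CHLA9 and 0 in TC71.

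Fibril-associated collagens, which sit on the surface of fibrils, were held in different sets. The type IX chains COL9A3 and COL9A2, known from cartilage, stood at 35.5 and 27.9 CPM in CHLA9, but at 3.84 and 0.514 CPM in TC71 (log2 -3.21 and -5.76); COL9A1, the remaining chain of type IX, had 0 UMIs in both lines. COL16A1 stood at 12.2 CPM in CHLA9, but at 0.137 CPM in TC71, from 8 UMIs (log2 -6.47, -7.69 to -5.49). Types IX and XVI were mainly those of CHLA9. COL19A1, a chain found at basement membrane zones (chr6:69866556-70212468, plus strand), was the reverse: 9 UMIs in CHLA9 (0.0514 CPM) and 634 in TC71 (10.9 CPM), a log2 ratio of 7.72 (6.79 to 8.86). COL21A1 was level, with 40.7 CPM (39.8 to 41.7) for CHLA9 and 41.8 CPM (40.1 to 43.5) for TC71, and its log2 ratio of 0.04 had an interval of -0.03 to 0.10 that includes 0. The ratio lay above that interval relative to the median gene (0.24), with all barcodes (0.27) and without mitochondrial and ribosomal protein genes (0.12). In the other settings it lay within the interval. COL19A1 and COL21A1 were the only described collagens not lower in TC71 than in CHLA9 on the CPM scale.

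Laminins are cross-shaped trimers of an alpha, a beta and a gamma chain that anchor cells to the basement membrane. The beta and gamma chains were those of the widespread laminins in both lines: LAMB1 was 40.2 CPM in CHLA9 against 25.1 CPM in TC71 (log2 -0.68, -0.77 to -0.60), and LAMC1 15.7 against 18.8 CPM (log2 0.26, 0.16 to 0.36). Alpha chains, which carry most binding to cell receptors, were under 10 CPM and differed in kind. LAMA3, best known from epithelia, was 6.24 CPM in CHLA9 against 0.703 CPM in TC71; LAMA2, best known from muscle, was 0.377 against 8.84 CPM; LAMA5 was 6.16 against 9.596 CPM. These alpha chains are named after their values were seen. Beside LAMB1, LAMC1 and LAMA5, CHLA9 held LAMA3 and TC71 held LAMA2, at the level of message. LAMB2, another beta chain, was 6.31 against 6.05 CPM, a log2 ratio of -0.06 whose interval (-0.24 to 0.11) includes 0.

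TIMP1, a secreted inhibitor of most MMPs, was the most abundant member in TC71. The gene lies at chrX:47582408-47586789 on the plus strand, within SYN1 on the opposite strand. CHLA9 held 67.2 CPM of TIMP1 (66.03 to 68.5) and TC71 967 CPM (959 to 975), a log2 ratio of 3.85 (3.82 to 3.87), and the gene ranked 2632 of all genes in CHLA9 and 145 in TC71. TIMP2, which blocks MMPs and also helps MMP14 activate MMP2, went the other way, with 69.5 CPM for CHLA9 and 10.1 CPM for TC71 (log2 -2.78, -2.91 to -2.66). TIMP3, which binds to the matrix and blocks ADAM proteases as well, had 106 CPM for CHLA9 and 21.6 CPM for TC71 (log2 -2.30, -2.38 to -2.21). CHLA9 held message of TIMP3, TIMP2 and TIMP1 within a factor of 2 of each other, and TC71 held mainly TIMP1. TIMP4 had 1 UMI in CHLA9 and 74 in TC71 (1.27 CPM).

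The MMPs were scarce. Only MMP14, a membrane-bound collagenase, reached 10 CPM, with 10.9 CPM (10.4 to 11.4) for CHLA9 and 0.463 CPM (0.305 to 0.673) for TC71, a log2 ratio of -4.56 (-5.17 to -4.01). Below that limit, and named after their values were seen, MMP11 was 7.24 CPM in CHLA9 against 0.446 CPM in TC71, MMP9, a gelatinase, 5.84 against 1.63 CPM, and MMP17 5.84 against 3.38 CPM. MMP2, the other gelatinase and a target of MMP14, was 2.21 against 0.3599 CPM. MMP15 was the exception among those at 1 CPM or more in a line, with 0.726 CPM for CHLA9 and 1.902 CPM for TC71. Of the 22 MMPs, 5 reached 1 CPM in CHLA9 and 3 in TC71, where 37.1% and 37.6% of all genes did. Most of the family lay under 1 CPM in each line, as most genes did.

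The remaining matrix glycoproteins also split. FN1, fibronectin, which links collagen to integrins, stood at 39.7 CPM (38.8 to 40.7) for CHLA9 and 5.501 CPM (4.92 to 6.14) for TC71, a log2 ratio of -2.85 (-3.02 to -2.69). SPARC, a collagen-binding protein that modulates cell adhesion (chr5:151661096-151686975, minus strand), was the reverse, with 4.11 CPM (3.81 to 4.42) for CHLA9 and 56.2 CPM (54.3 to 58.1) for TC71, a log2 ratio of 3.77 (3.66 to 3.89). HMCN1, hemicentin, a very large protein of cell junctions and basement membranes, was high in both, with 82.3 CPM (80.9 to 83.6) for CHLA9 and 148 CPM (145 to 151) for TC71, a log2 ratio of 0.84 (0.81 to 0.88). Among described members, TIMP1 and SPARC had the largest excess in TC71 after COL19A1.

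The promoters of TIMP1 (chrX:47582186-47582485, plus strand) and SPARC (chr5:151686866-151687165, minus strand), also from RefSeq on GRCh38.p14, are shown for that excess, with matches to the same 4 motifs in capitals.
TIMP1: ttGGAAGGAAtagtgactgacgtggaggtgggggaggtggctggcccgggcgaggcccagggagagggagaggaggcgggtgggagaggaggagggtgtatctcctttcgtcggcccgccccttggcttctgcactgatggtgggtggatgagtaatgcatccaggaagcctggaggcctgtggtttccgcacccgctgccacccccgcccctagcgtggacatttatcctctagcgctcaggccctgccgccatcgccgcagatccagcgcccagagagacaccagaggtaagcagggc
SPARC: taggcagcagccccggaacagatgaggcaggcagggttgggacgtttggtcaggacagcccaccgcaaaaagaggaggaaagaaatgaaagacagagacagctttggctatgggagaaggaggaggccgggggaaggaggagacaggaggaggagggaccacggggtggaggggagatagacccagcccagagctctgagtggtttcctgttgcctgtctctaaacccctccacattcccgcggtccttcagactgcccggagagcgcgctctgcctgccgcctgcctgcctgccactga
The TIMP1 window holds GGAAGGAA, a tandem copy of the core bound by ETS factors, 248 bases before the start, at the edge of the window; 3.67% of all promoters hold this motif on either strand. The SPARC window held no match to any of the 4. Both windows had fewer CpG (16 and 11) than those of COL4A1 and COL4A2 (45 each), and the median over all promoters was 14. A match is a description of the letters only. The promoter table held 57 of the 85 members.

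Counted over the family, 37 of the 85 members had a mean of at least 1 CPM over the lines. Of these, 22 were at least 2-fold higher in CHLA9, where 18.9% of all 12932 genes at that level were, and 7 were at least 2-fold higher in TC71, where 12.3% of all genes were. These counts rested on the limit: at a mean of 5 CPM or more they were 16 in CHLA9 and 3 in TC71, and with no filter on low values 26 and 22. The shares of all genes hold for the limit of 1 CPM only, so the counts at other limits have none beside them. The CHLA9 group was COL1A1, COL1A2, COL3A1, COL4A1, COL4A2, COL5A1, COL6A1, COL6A2, COL6A3, COL7A1, COL8A2, COL9A2, COL9A3, COL16A1, LAMA3, FN1, MMP2, MMP9, MMP11, MMP14, TIMP2 and TIMP3, and the TC71 group was COL2A1, COL19A1, COL24A1, LAMA2, MMP15, SPARC and TIMP1. A gene held by 1 line enters such a count through that line, so the counts describe the members and support nothing further. The median log2 ratio was -2.30 over these members and -0.21 over all 12932 genes. Relative to that all-gene shift, COL5A2 changed sign, to 0.04, COL3A1 came within 2-fold, at -0.91, and HMCN1 passed 2-fold, at 1.05; the laminin sum also changed sign, from -0.12 to 0.08. Centring moved the split over all genes from 1593 higher in TC71 and 2442 higher in CHLA9 to 1991 and 1841, and that over members from 7 and 22 to 8 and 21. The summed collagen ratio was -2.17 before and -1.96 after centring, so the deficit in TC71 was larger than the shift of the median gene.

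Genes that fold, modify and process collagen were near the same level in both lines as a sum. Of 32 such genes, 21 reached 1 CPM in CHLA9 and 27 in TC71, and among 26 with a mean of at least 1 CPM, 8 were at least 2-fold higher in CHLA9 and 7 in TC71, against 18.9% and 12.3% of all genes at that level. SERPINH1, the collagen chaperone HSP47, was 114 CPM in CHLA9 against 37.3 CPM in TC71 (log2 -1.61), and the prolyl hydroxylase P3H2 12.3 against 2.52 CPM (log2 -2.29). In the other direction, the lysyl hydroxylase PLOD2, which prepares collagen for crosslinking, was 0.514 against 28.5 CPM (log2 5.79), and PCOLCE2, an enhancer of procollagen processing, 0.0286 CPM from 5 UMIs against 11.98 CPM (log2 8.71). The list summed to 967 CPM for CHLA9 and 928 CPM for TC71 (log2 -0.06, -0.07 to -0.05), of which PPIB gave 158 and 335 CPM, and the median log2 ratio of the 26 genes was -0.39. Of these genes 11 stayed within 2-fold, and P3H3 came within 2-fold after centring (-0.86). Centring also changed the sign of the ratio of the sum, to 0.15.

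Matrix receptors included genes higher in either line. Of 27, 13 reached 1 CPM in CHLA9 and 17 in TC71, and of 16 with a mean of at least 1 CPM, 4 were at least 2-fold higher in CHLA9 and 4 in TC71, again against 18.9% and 12.3% of all genes; the sums were 411 and 326 CPM. ITGB1, the beta chain of most collagen, laminin and fibronectin receptors, was level at 165 and 168 CPM, while the collagen receptor DDR2 was 115 CPM in CHLA9 against 46.1 CPM in TC71 (log2 -1.33) and ITGA5, of the fibronectin receptor, 35.5 against 15.7 CPM (log2 -1.17). The 4 higher in TC71 were under 10 CPM and are named after their values were seen: ITGA4, of a fibronectin receptor, at 0.04001 against 6.99 CPM (log2 7.45), and ITGA2, ITGA1 and ITGA3, of collagen and laminin receptors, at 0.0686 against 7.04 CPM, 0.783 against 5.57 CPM and 0.406 against 2.06 CPM. After centring, ITGA5 (-0.97) and SDC1 (-0.90) came within 2-fold. Both lines held ITGB1 at a like level, and several alpha chains at unlike levels.

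Other matrix proteins were lower in TC71 as a sum. Of 27, 15 had a mean of at least 1 CPM, of which 12 were at least 2-fold higher in CHLA9 and 0 in TC71, against 18.9% and 12.3% of all genes. The list summed to 431 CPM for CHLA9 and 160.2 CPM for TC71. After centring, AGRN (-0.97) and TNC (-0.89) came within 2-fold. FBN2, a fibrillin of microfibrils, had 18.9 CPM in CHLA9 and 0 UMIs in TC71, at least 368-fold higher in CHLA9 against the floor of 3 UMIs, and EFEMP2, needed for elastic fibers, was 20.7 against 1.697 CPM (log2 -3.61). Of 12 genes of protease control, 8 of the 9 with a mean of at least 1 CPM stayed within 2-fold, 0 were higher in CHLA9 and 1 in TC71, beside the same all-gene shares, with sums of 547 and 475 CPM; the exception was ADAMTS1, a protease of proteoglycans, at 3.33 against 20.3 CPM (log2 2.61). SERPINE2, a protease inhibitor, was 43.1 against 64.1 CPM (log2 0.57), PLAUR, the urokinase receptor, 19.7 against 13.9 CPM (log2 -0.51), and ADAM17, a sheddase, 29.3 against 20.9 CPM (log2 -0.49).

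All 10 Ewing sarcoma markers examined reached 1 CPM in both lines, with sums of 4496 CPM for CHLA9 and 2569 CPM for TC71 and CCND1 highest (2510.5 and 1451 CPM), and all 4510 CHLA9 and 1670 TC71 cells thinned to 10000 UMIs held a UMI of at least 1 of them. Of 6 fibroblast markers, 5 reached 1 CPM in CHLA9 and 4 in TC71, with sums of 62.3 and 15.6 CPM; PDGFRB was highest in CHLA9 (23.2 CPM) and THY1 in TC71 (7.59 CPM), none was at 0, and PDGFRA had 9 and 2 UMIs. These markers were lower in TC71, as the collagens were. In the 2539 thinned CHLA9 cells without any UMI of the 6 markers, COL1A2 was found in 83.6%, against 86.1% of the 1971 cells with such a UMI, with free RNA not set apart in either group. The part of these lists in the differences between the lines was not tested. Endothelial (PECAM1, CDH5 and VWF) and immune (PTPRC, CD3E and LYZ) markers stayed under 1 CPM, with sums of 0.223 and 0.0685 CPM and of 0.217 and 0.11996 CPM; CDH5 was the highest endothelial gene in both lines, LYZ the highest immune gene in CHLA9 and PTPRC in TC71, with VWF and CD3E at 0 in both and PECAM1 at 0 in TC71. Among the epithelial markers EPCAM, CDH1 and KRT5, EPCAM was highest (0.0457 and 1.25 CPM) and KRT5 was at 0 in both; the list summed to 0.0514 and 1.27 CPM.

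To compare cells at 1 depth, each was thinned to 10000 UMIs, which left out 14 CHLA9 and 59 TC71 cells. UMIs of COL1A2 were found in most CHLA9 cells: 84.7% of cells (83.6 to 85.8, Clopper-Pearson) held a UMI at this depth, 99.1% without thinning, and in TC71 2 of 1670 cells, or 0.1198%, did so. These libraries hold no cell type that should lack matrix genes, so no background share was measured and each share may include free RNA of its own library; before thinning the median depths were 34656 UMIs in CHLA9 and 33370 in TC71. COL4A1 and COL4A2 were found in 32.5% and 33.6% of thinned CHLA9 cells and in 0 of 1670 in TC71, with an upper Clopper-Pearson limit of 0.221% for the share of thinned cells with a UMI.

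With a collagen UMI of any kind in 99.5% of CHLA9 cells and 71.98% of TC71 cells, collagen UMIs were found in most cells of either line. TIMP1 was found in 99.5% of TC71 cells (98.98 to 99.8), with a mean of 9.89 UMIs, and in 43.1% of CHLA9 cells, with a mean of 0.674. SPARC was in 41.8% of TC71 cells and 3.04% of CHLA9 cells, and HMCN1 in 71.2% and 53.1%. At 1 depth the share of cells follows largely from the mean, so these shares mostly restate the levels. In TC71 the mean alone gives 43.3% for SPARC and 75.5% for HMCN1. Unthinned, TIMP1 was in 99.8% of TC71 and 78.1% of CHLA9 cells, SPARC in 75.9% and 10.5%, and HMCN1 in 93.5% and 88.9%.

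**Figure D3:**
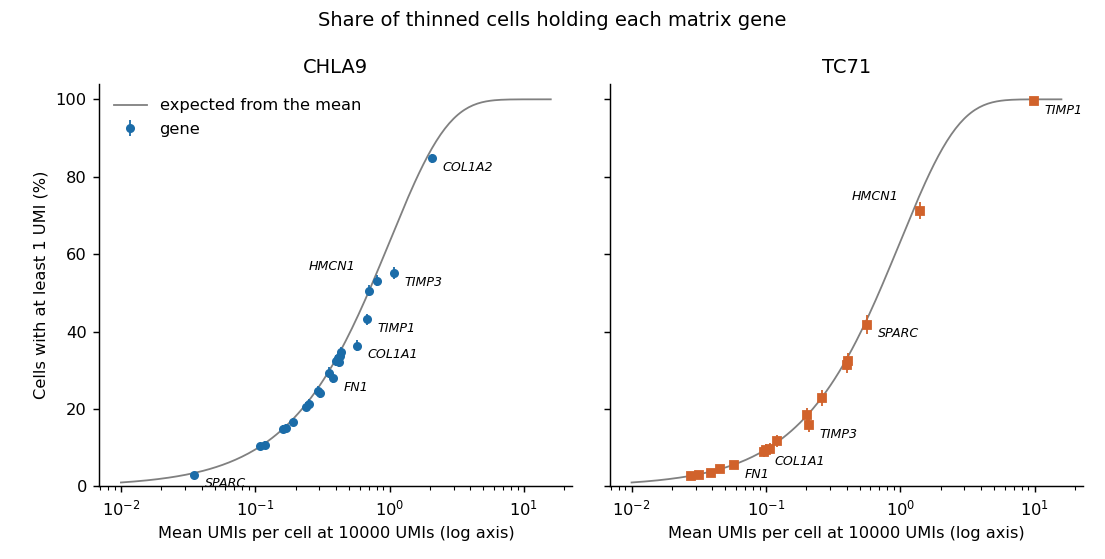
Percent of cells with at least 1 UMI of each described gene against its mean UMIs per cell after thinning to 10000 UMIs, on a log axis, for genes with a mean of at least 0.01, with exact 95% Clopper-Pearson intervals; the line is the share expected from the mean with counting error alone. Most genes lie near the line, and TIMP3 in CHLA9 lies below it, at 55.1% against 66.05%.

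The spread of members over cells was compared with counting error. The variance of the UMIs per cell divided by their mean, 1 for counting error alone, had a median of 1.09 over 22 members in CHLA9 and 1.08 over 12 in TC71 with a mean of at least 0.1 UMIs; over all such genes it was 1.04 (8610 genes) and 1.05 (8145 genes). The ratio was more than 20% above 1, a limit chosen after seeing the data, for 6 of the CHLA9 members against 9.55% of all such genes, and for 3 of those of TC71 against 8.68%. Most members lay near counting error, as most genes did, and some lay above it.

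Of members with a mean of at least 0.1 UMIs, TIMP3 had the highest ratio in CHLA9, 1.81. UMIs of TIMP3 were in 55.1% of cells where its mean of 1.08 gives 66.05%, and 143 cells held 5 or more. COL1A1 followed with 1.63 (36.3% of cells against 43.4% from its mean), then TIMP1 with 1.49 and FN1 with 1.45. Their means were lower, at 0.57, 0.674 and 0.381 UMIs. The ratio depends on the mean as well, so its order is not one of spread relative to level. COL1A2, with more UMIs than any of these, had only 1.204. COL1A1 was less even over CHLA9 cells than its partner chain. Below that mean, and named after their values were seen, MMP2 had 2.21 and MMP9 had 1.59. UMIs of MMP2 were in 1.796% of cells, and only 1 cell held 5 or more, with 10. The MMP2 ratio rests in part on that cell and was not computed without it.

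In TC71, TIMP1 had the highest ratio, 3.44, at a mean of 9.89 UMIs. It had a median of 9 UMIs per thinned cell, and a range from 3 at the lowest decile to 18 at the highest. Its mean was far above those of the other members, so this ratio does not make it the most uneven gene for its level. TIMP3 had 1.58 at a mean of 0.21 and HMCN1 1.31 at a mean of 1.41, while SPARC had 1.08 and COL19A1 0.9499. UMIs of TIMP1 were found in almost all TC71 cells, and their number per cell varied by more than counting error; the part of free RNA was not measured, and TIMP1 stood at 1109 CPM in TC71 barcodes under 5000 UMIs. In CHLA9, 25 of 4510 cells held 5 or more UMIs of TIMP1, and 21 of these also held COL1A2, as did 84.7% of all 4510 cells. The 25 cells were picked after the values were seen.

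**Figure D4:**
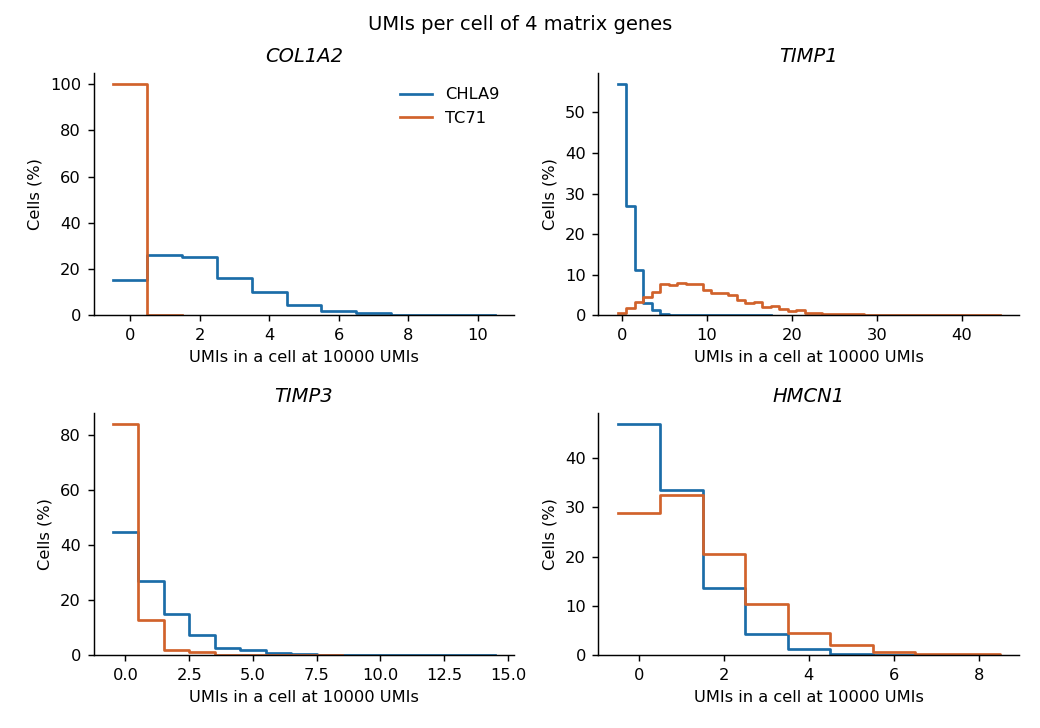
Percent of cells with each number of UMIs of COL1A2, TIMP1, TIMP3 and HMCN1 after thinning to 10000 UMIs, for 4510 CHLA9 cells and 1670 TC71 cells. COL1A2 has its median at 2 UMIs in CHLA9 and at 0 in TC71, and TIMP1 is broad in TC71, with a median of 9 UMIs.

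Correlations between described genes over cells were all weak. Over thinned cells of 1 library, which share their depth and library, the median Pearson r of the log of 1 plus the UMIs was 0.0119 over 253 pairs of described genes in CHLA9 and -0.001698 over 210 pairs in TC71, and the extremes were -0.0358 and 0.0724 in CHLA9 and -0.1199 and 0.0981 in TC71. For chains of the same collagen in CHLA9, r was 0.0523 for COL4A1 and COL4A2 (Spearman 0.0429), 0.04604 for COL6A1 and COL6A2 (Spearman 0.0427), 0.0231 for COL1A1 and COL1A2 (Spearman 0.0214) and 0.0206 for COL5A1 and COL5A2 (Spearman 0.0172), each over 4510 cells. In counts this sparse such values are no finding in either direction, so whether members vary together was not settled.

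Cell cycle phases were scored from gene lists that hold 0 of the 85 members. G1 took 22.6% of CHLA9 cells and 12.5% of TC71 cells when genes seen in fewer than 10 cells were left out of the scoring, but 22.8% and 25.7% with all genes, so no difference between the lines is read from these shares. The phases differed in depth, with medians of 29240 UMIs in G1 and 40896 in G2M in CHLA9, and of 28482.5 and 37023 in TC71. No member at 10 CPM or more in its line differed by 1.5-fold between G1 and G2M: in CHLA9 0 of 22 were higher in G1, where 1.32% of 8621 genes were, and 0 in G2M, where 5.41% were. In TC71 0 of 12 were higher in G1, where 0.392% of 8153 genes were, and 0 in G2M, where 6.37% were. Among cells of 20000 to 50000 UMIs, TIMP3 passed 1.5-fold in TC71 G1 cells, with a log2 ratio of 0.68. Of members under 10 CPM, looked at after the values were seen, MMP2 was 3.68 CPM in G1 and 1.696 CPM in G2M in CHLA9 (log2 1.12, lower limit 0.75), and in TC71 COL9A3 and LAMA3 were higher in G1 (log2 0.72, 0.13 to 1.28, and 2.01, 0.40 to 3.62, the latter from 8 UMIs in each phase) and FN1 and COL5A1 lower (log2 -0.66, -1.36 to -0.02, and -1.20, -2.20 to -0.34). Among all kept cells, members at 10 CPM or more differed by less than 1.5-fold between these phases, and some scarcer ones by more.

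Smaller differences lay beyond counting error. In CHLA9 the members summed to 1191 CPM in G1, 1071 in S and 1103 in G2M, a log2 ratio of G1 over G2M of 0.11 (0.09 to 0.13), and in TC71 to 1621, 1434 and 1373 CPM (log2 0.24, 0.21 to 0.27). TIMP1 was higher in G1 in both lines, at 78.3 against 60.6 CPM in CHLA9 (log2 0.37, 0.30 to 0.44) and 1194 against 892 CPM in TC71 (log2 0.42, 0.38 to 0.46), and without it the TC71 log2 ratio of the sum was -0.17. The excess of the TC71 sum in G1 was that of TIMP1. By summed UMIs, TIMP3 was also higher in G1 in both lines (log2 0.08 in CHLA9, 0.02 to 0.13, and 0.40 in TC71, 0.14 to 0.66). LAMB1 was lower (log2 -0.19, -0.29 to -0.10, and -0.32, -0.60 to -0.05). TIMP1 and TIMP3 varied over cells by more than counting error, with variance over mean of 1.49 and 1.81 in CHLA9 and 3.44 and 1.58 in TC71. Their intervals leave that spread out and are too narrow, so whether the TIMP3 differences lie beyond it was not tested.

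In CHLA9, intervals lay above 0 for 12 of 22 members and below 0 for 4 (COL16A1, COL5A2, LAMB1 and TIMP2), against 29.9% and 38.4% of the genes at 10 CPM or more. In TC71 they lay above 0 for 2 of 12 and below for 3, against 14.6% and 32.9% of such genes. The median log2 ratio was 0.09 over members and -0.03 over all such genes in CHLA9, and -0.06 and -0.11 in TC71. Such intervals leave out 0 for most genes at this level in CHLA9, so the counts describe members only. The type VI chains and COL1A1 were among those higher in G1: COL6A2 was 21.1 CPM in G1 against 15.4 CPM in G2M (log2 0.45, 0.32 to 0.59), COL6A1 29.2 against 23.97 CPM, COL6A3 17.8 against 14.7 CPM and COL1A1 64.9 against 52.7 CPM. COL1A2 was 233 CPM in G1, 183 CPM in S and 208 CPM in G2M, lowest in S. For COL4A1 (38.6 and 37.96 CPM) and COL4A2 (41.1 and 43.3 CPM) the intervals of the ratio of G1 to G2M included 0 on the log2 scale, and both were highest in S, at 42.5 CPM (40.9 to 44.1) and 45.8 CPM (44.2 to 47.4). The type VI chains were highest in G1 and the type IV chains in S, by less than 1.5-fold. For COL6A3 the intervals in G1 (16.3 to 19.3 CPM) and S (16.1 to 18.1 CPM) overlapped. Those of COL4A2 in S and in G2M (41.8 to 44.8 CPM) overlapped as well.

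HMCN1 was lower in G1 than in G2M in TC71, at 114 and 155 CPM (log2 -0.44, -0.56 to -0.33), and slightly higher in CHLA9, at 91.1 and 86.1 CPM (log2 0.08, 0.02 to 0.15). SPARC, in TC71, was level at 57.7 CPM in G1 and 57.8 CPM in G2M (log2 interval -0.18 to 0.17). With phases scored on all genes, the 5 TC71 log2 ratios whose intervals left out 0 came nearer 0: HMCN1 -0.25, TIMP1 0.36, TIMP3 0.13, LAMB1 -0.17 and COL21A1 -0.07. Their signs stayed, while the size of these differences in TC71 rested on the scoring.

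**Figure D5:**
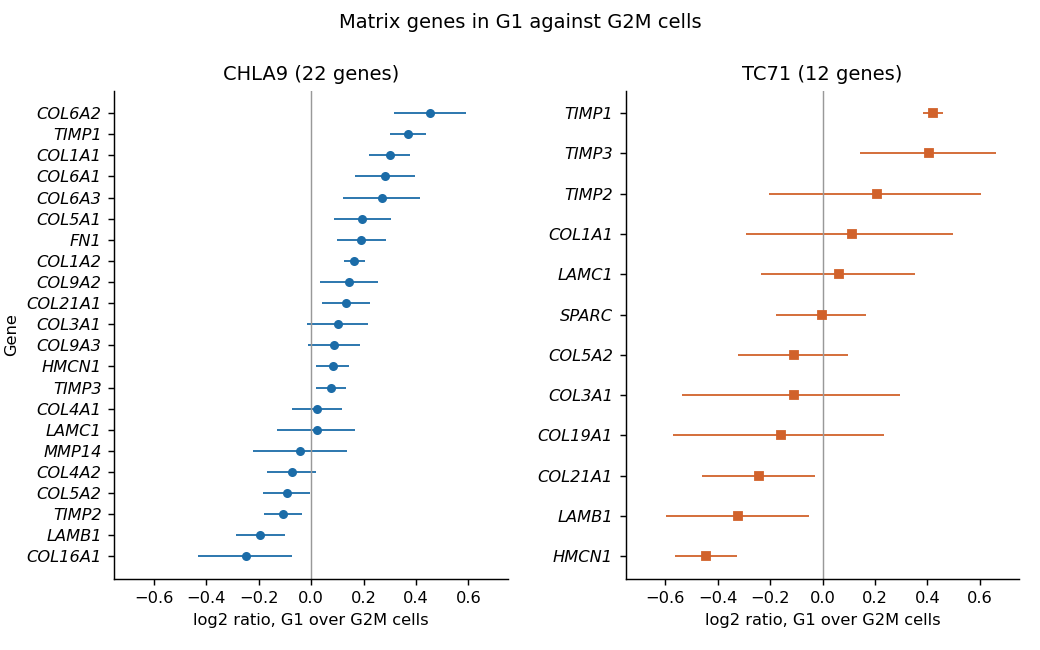
The log2 ratio of the level in G1 cells to that in G2M cells for each gene with at least 10 CPM in CHLA9 (22 genes) and TC71 (12 genes), with exact 95% conditional intervals that cover counting error only; the vertical line marks equal levels. TIMP1 lies above 0 in both lines, at 0.37 and 0.42, and HMCN1 is lowest in TC71, at -0.44.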

How the data were processed

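A droplet library of CHLA9 and another of TC71 were analysed. The deposited values are counts of UMIs for every gene in every barcode, made with Cell Ranger 3.1.0 on hg38 according to the submitters' processing notes, and not normalized. The members and lists were chosen with earlier results of these data known. Cells needed 5000 UMIs and 2000 genes, with mitochondrial UMIs at 15% or less, which kept 4524 in CHLA9 and 1729 in TC71; 3 UMIs are 0.0171 and 0.0514 CPM there. No doublet caller was run and doublets were not removed, and leaving out the 8% of cells with most UMIs was an alternative.

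UMIs were summed over kept cells and divided by the library total. Sums have exact 95% Poisson intervals, ratios exact conditional binomial intervals and shares Clopper-Pearson intervals (scipy 1.17.1). A line with 0 UMIs was set to 3 UMIs for a bound, and in the counts of genes past a fold and in the alternatives any value under 3 UMIs was set to 3. COL1A2 in TC71, with 2 UMIs, therefore has a log2 ratio of -12.53 as printed and of -11.95 there. Cells were thinned without replacement with numpy 2.4.6 and a seed of 1, and tables were handled with pandas 2.3.3 in Python 3.11.15. Phases were scored with CellCycleScoring of Seurat 5.3.0 in R 4.3.3 on genes detected in at least 10 cells. Figures were drawn with matplotlib 3.10.9. Gene positions are those of GENCODE 44 (GRCh38), joined on the gene identifier, and promoters those of RefSeq on GRCh38.p14. Of the 24 described genes, 7 overlap a protein-coding gene on the opposite strand, and TIMP2 overlaps CEP295NL on its own strand, where a read that fits both genes is counted for neither.

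Each member with at least 10 CPM in either line was described by itself, and of each pathway list the 2 genes with the largest ratio in each direction among those with at least 10 CPM in a line were named, where that many had that direction. Since each line is a single library, lines were compared by values and counting intervals without a test. Alternatives covered cell filters, doublets, scaling, limits on low genes, depth, seed and the scoring of phases. The ratios, their intervals and the phase scoring were tested on simulated data. The simulated phases were made by raising or lowering the scoring genes themselves, so they check the code only. They do not show how well phases of real cells are found.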

Additional observations from a re-analysis of the deposited data

Results flagged for a closer look

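Of 17 described genes with a ratio in both lines, 4 had G1 over G2M log2 ratios of opposite sign with counting intervals that leave out 0 in each line, and 3 (LAMB1, TIMP1 and TIMP3) the same sign, against 4.61% and 29.8% of the 9117 genes chosen in the same way. HMCN1 was 0.0826 in CHLA9 and -0.44 in TC71, COL21A1 0.13 and -0.24, FN1 0.19 and -0.66, and COL5A1 0.20 and -1.20. FN1 and COL5A1 rested on 23 and 12 UMIs in TC71 G1 cells. With phases scored on all genes HMCN1 was -0.25 and COL21A1 -0.07 in TC71. Each line being a single library, the difference was not tested, and intervals of this kind leave out 0 by chance in some of many genes.

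Barcodes under 5000 UMIs, which the filters left out, also held matrix message. In CHLA9 277 such barcodes had a summed member level of 868 CPM, and in TC71 5869 had 1656 CPM; the difference was not tested. TIMP1 stood at 1109 CPM and HMCN1 at 178 CPM in those of TC71, where COL1A2, COL4A1 and COL4A2 had 0 UMIs, and COL1A2 at 162 CPM in those of CHLA9. TIMP2 was 18.03 CPM (9.6002 to 30.8) in those of CHLA9 against 13.6 CPM (11.3 to 16.3) in those of TC71, and TIMP3 33.3 (21.3 to 49.5) against 20.2 CPM (17.3 to 23.3). TIMP1 was 16.6 CPM (8.5997 to 29.1) in those of CHLA9, and SPARC had 0 UMIs there against 67.02 CPM in those of TC71.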

How the results depend on the processing

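No paired analysis was possible because the lines are not matched and come as a single library apiece. Of the alternative values of the main results, 92 stayed within the tolerance, 14 moved and 3 reversed. The tolerance was the counting interval of the reported value, 1.5 times for counts and 0.1 for medians. A change of sign was a reversal where that interval left out 0. The median variance over mean was compared over described genes with any UMI, which gives 1.09 in CHLA9 and 1.04 in TC71. Over the members with a mean of at least 0.1 UMIs, a check chosen after seeing the data, it ran from 1.05 to 1.11 and from 1.07 to 1.13, within the tolerance. The summed level of TC71 became 1639.8 CPM with all barcodes and 1439 CPM without the 8% of cells with most UMIs. Without mitochondrial and ribosomal protein genes in the total, which makes the total smaller, the sums were 1468 CPM for CHLA9 and 2012 CPM for TC71. The log2 ratio of the sum, TC71 over CHLA9, was 0.56, 0.38 and 0.45 in these settings and 0.57 after centring on the median gene. It reversed to -1.17 without TIMP1 and to -2.17 with collagens only, both chosen after seeing the data. Members at least 2-fold higher in TC71 were 3 at a mean of 5 CPM or more and 22 with no filter on low values, and those higher in CHLA9 16 and 26, as fewer or more genes were counted. Shares of all genes are given for a mean of 1 CPM only. Members in at least 10% of TC71 cells became 19 without thinning, since each cell then had more UMIs. The G1 over G2M log2 ratio of the sum was 0.14 in CHLA9 cells of 20000 to 50000 UMIs, and 1 member passed 1.5-fold in G1 in such TC71 cells. In TC71 it was 0.28 with the updated phase list and reversed to -0.17 without TIMP1, again chosen after seeing the data. Except where stated, the cause was not tested.

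Of 168 values of single genes, TC71 over CHLA9, 129 stayed within the tolerance, 37 moved and 2 reversed: COL5A2, to 0.0963 with all barcodes and to 0.0392 after centring; the cause was not tested. Of 132 G1 over G2M values in CHLA9 and 72 in TC71, 6 and 5 moved and 0 reversed, while 3 (LAMC1 and MMP14) and 8 (COL3A1, LAMC1 and SPARC) changed sign with reported intervals that include 0. TC71 had fewer kept cells and fewer UMIs in total: 3 UMIs are 0.0514 CPM there, against 0.0171 CPM in CHLA9. Its G1 cells numbered 216 as scored, and 445 with phases scored on all genes. Spread between cultures of a line was not measured.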
